A study of Brassica napus with 355 samples.

Results

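Water deprivation response regulators are genes that raise or damp the reaction of a plant to a shortage of water. In plants, drying raises the hormone abscisic acid, its receptors restrain protein phosphatases, and the kinases that these phosphatases hold back then act on ion channels of the guard cells and on transcription factors. Regulators of this response act at each of these steps, and some promote it while others limit it. Many genes of the response also follow the day and night cycle, since the circadian clock gates stomatal opening and abscisic acid signalling. The 9 members, BraA03g37420R, BraA03g46990R, BraA08g12680R, BraA09g05890R, Bo1g017970, Bo3g068870, Bo7g105520, Bo8g049770 and Bo9g010710, were described here, of 106126 identifiers in the count tables. They were the identifiers that the study's supplement gives for the regulation of the response to water deprivation in a module of genes with a common response in accession St. The tables used here give no name or role to any of the 9 identifiers, so none is assigned below. By their identifiers, 4 are genes of the Brassica rapa R500 reference and 5 of the Brassica oleracea TO1000 reference, which stand for the A and C subgenomes of Brassica napus, a species that carries both.

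RNA was sequenced from the tip of the youngest leaf of 16 B. napus accessions kept either well-watered (WW), at 100% of the soil's water capacity, or water-limited (WL), at 20%, with leaves taken 1, 7, 13 and 19 h after dawn (ZT1, ZT7, ZT13, ZT19). The accessions are Ab (Aburamasari), Al (Alaska_BnASSYST_004), Av (Aviso), Br (Bristol_BnASSYST-031), Ca (Campari_BnASSYST-075), Da (Darmor), DH12 (DH12075), DH20 (DH2075), Gr (Gruener Schnittrohl_BnASSYST-219), Mu (Musette_BnASSYST-056), Ne (NK_Nemax_BnASSYST-084), Se (Sensaton_NZ_BnASSYST-414), St (Stellar DH JZ111), Qu (Quantum NE011), Yu (Yudal_BnASSYST-241) and Ze (Zephir_BnASSYST-068). The labels name no transgene or mutation, and the plants were sampled at the end of a prolonged limitation. The labels and the study's methods disagree on temperature and day length, so neither is given. The labels describe 3 plants per accession, treatment and time point, and p-values within an accession measure the spread between these libraries in a single experiment. P-values over accessions measure the spread between accessions in that same experiment, not between days of sampling or repeats of it. The tissue was not checked against marker genes, since the identifiers carry no names.

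Of 355 libraries listed, 354 were analysed, 182 WW and 172 WL, and their total counts ran from 3216762 to 35177558 with a median of 18332048. The library left out was Br WW ZT13 replicate 1, which had no column of counts. Of 128 groups of accession, treatment and time point, 101 had 3 libraries, 24 had 2 and 3 had 1 (Ab WL ZT7, St WL ZT7 and Ca WL ZT13). In 6 libraries the profile of the 2000 genes with the largest diel change was closer to another time point than to the labelled one. These were Al WL ZT7 replicate 3, Br WW ZT7 replicate 3, Ca WW ZT7 replicate 1, Da WW ZT7 replicate 1 and St WL ZT7 replicate 2, which were closer to ZT13, and DH20 WL ZT13 replicate 3, which was closer to ZT7. Calls, counts of peaks and lowest values pooled over all members, and lowest differences that rested on them are also given without them. The exception is ZT7 in St, where no other WL library was left. Counts of accessions for a single member include these libraries.

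Of the 9 members, 8 had a count above 0 in all 354 libraries and Bo8g049770 in all but 1. Their median estimated counts over the 354 libraries ran from 70.75 for Bo1g017970 to 626 for BraA03g37420R, and all 9 passed the filter on low counts in each of the 16 accessions. Its count of 0 was in DH20 WL ZT13 replicate 3, a library of 6443324 counts, where 0 allows up to 0.466 CPM (counts scaled to a common library size, from 3 counts, counting error only). Counts were fractional where a read mapped to several places, and the share of libraries with a count that was not whole ran from 20.1% for Bo9g010710 to 52.8% for BraA03g37420R. Members with near-identical copies may therefore share reads.

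Transcript levels were compared between genes per length, as the deposited log2 FPKM averaged over time points. Under WW, BraA03g37420R stood highest, at a log2 FPKM of 3.84 in Av, a median of 4.57 and 5.45 in Ca, with a mean of 4.58 ± 0.54 (SD, n = 16 accessions). Bo3g068870 followed at a mean log2 FPKM of 4.43 ± 0.76 and Bo7g105520 at 4.30 ± 0.23 (SD, n = 16). These neighbours did not differ beyond their spread, since the difference of BraA03g37420R from Bo3g068870 was 0.15 ± 0.30 and that of Bo3g068870 from Bo7g105520 was 0.13 ± 0.86 on the log2 FPKM scale. BraA03g46990R came next, at a mean log2 FPKM of 3.59 ± 0.31, below Bo7g105520 by 0.72 ± 0.17 (SD) and lower than it in 16 of 16 accessions. Bo8g049770 had a mean log2 FPKM of 3.41 ± 0.42, BraA08g12680R of 3.19 ± 0.70, BraA09g05890R of 2.98 ± 0.79, Bo1g017970 of 2.81 ± 0.39 and Bo9g010710 of 2.73 ± 0.81. Of the 8 steps in this order, the step from Bo7g105520 to BraA03g46990R was the only one larger than the SD of the difference over accessions. Bo7g105520 varied least between accessions, from 4.00 in Ze to 4.76 in St in log2 FPKM.

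Accessions stood apart for several members. The log2 FPKM were normalized within each accession, and all accessions were mapped to the same references. The part of scaling or of sequence differences between accessions in these levels was not tested. Se had the highest WW level of BraA09g05890R, a log2 FPKM of 5.06 against 4.04 in Ab, the next, and 2.14 in Av, the lowest. Bo9g010710 gave the same picture, with a log2 FPKM of 5.05 in Se, 3.39 in Ca, the next, and 1.61 in Av. Under WL, Se stood at a log2 FPKM of 4.92 for BraA09g05890R, with 3.62 in Yu as the next, and at 4.88 for Bo9g010710, with 2.25 in Ab as the next. BraA08g12680R was highest in DH20 under WW, at a log2 FPKM of 4.73, followed by Gr at 4.21. The plot of levels by accession shows Se far above the others for these 2 members and St at or next to an end of the range for 5.

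**Figure D1:**
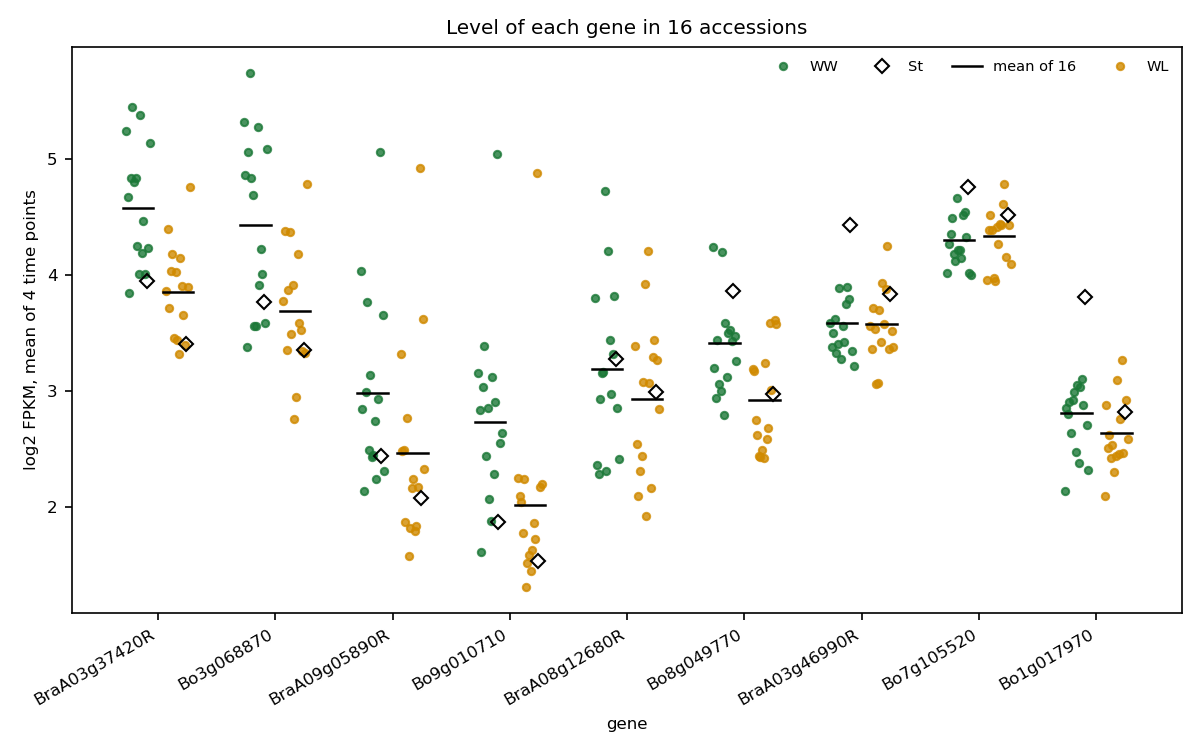
Level of each of the 9 members (horizontal axis) as log2 FPKM averaged over the 4 time points, with 1 point for each of 16 accessions under WW (green) and WL (orange), open diamonds for St and a line for the mean of 16. A single WW point, Se, stands above the rest for BraA09g05890R (5.06) and Bo9g010710 (5.05), and the WW means run from 2.73 to 4.58.

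In St, whose response chose the members, the WW level was the highest of 16 accessions for Bo1g017970 (log2 FPKM 3.81, next 3.10 in Qu), Bo7g105520 (4.76, next 4.67 in DH20) and BraA03g46990R (4.43, next 3.90 in Qu). It was the second lowest for BraA03g37420R (3.95) and for Bo9g010710 (1.87). Under WL, St ranked from 3 to 14 of 16 for the 9 members, and its WL log2 FPKM was 2.82 for Bo1g017970, 4.52 for Bo7g105520 and 3.84 for BraA03g46990R. These are levels of groups that the choice of members used in part, and they are given as a description.

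The members varied in pairs, each of a B. rapa and a B. oleracea identifier. Over 120 group means of 15 accessions without St, in log2 CPM centred within accession, BraA03g37420R and Bo3g068870 had a Pearson r of 0.95. BraA03g46990R and Bo7g105520 had an r of 0.88, BraA08g12680R and Bo8g049770 of 0.87, and BraA09g05890R and Bo9g010710 of 0.88. Bo1g017970 had no such partner, and its r was 0.72 with BraA03g46990R and 0.71 with Bo7g105520. Over all 36 pairs r ran from -0.05 to 0.95 with a median of 0.56, so the members did not form a single group. The points share libraries and time points, and each member had counts that were not whole in 20.1% to 52.8% of libraries, and the part of shared reads in these correlations was not tested. Whether the members of a pair are copies of the same gene was not checked here. Of 60408 genes, the one closest to both BraA03g37420R (r = 0.95) and Bo3g068870 (r = 0.96) that is not a member was BraA05g21320R. For the others the closest were Bo2g166210 for BraA03g46990R (0.71), BraA07g27420R for BraA08g12680R (0.79), Bo1g144870 for BraA09g05890R (0.82), Bo3g097960 for Bo1g017970 (0.66), Bo7g118150 for Bo7g105520 (0.76), Bo3g185820 for Bo8g049770 (0.84) and BraA06g31780R for Bo9g010710 (0.86), each over the same 120 group means.

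The diel profile was described next. Under WW, transcripts were most often lowest just after dawn, at ZT1, and highest at ZT13 or ZT19. Among the 135 pairs of a member and an accession other than St, the highest of the 4 WW group means was at ZT19 in 78, at ZT13 in 43, at ZT7 in 11 and at ZT1 in 3, and the lowest was at ZT1 in 91. Without the 6 libraries closer to another time point these numbers were 77, 44, 11 and 3, and 87. Taking accessions as replicates, the 4 WW time points differed for 9 of 9 members (limma F test with accession as a term, adjusted p of 0.01 or less), where 71.5% of all 44168 genes tested passed the same test. With such a background the share says little of these members in particular. Without replicate 2, BraA09g05890R (adjusted p = 0.0514) and Bo9g010710 (adjusted p = 0.0935) were no longer called by limma.

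Bo8g049770 and Bo7g105520 were lowest at ZT1 in 15 of 15 accessions. The mean WW level of Bo8g049770 was 1.76 ± 0.58 at ZT1, 2.90 ± 0.66 at ZT7, 3.23 ± 0.60 at ZT13 and 3.39 ± 0.46 at ZT19 in log2 CPM (SD, n = 15), an adjusted p of 7.41e-12 by limma. At ZT1 it ran from 0.70 in Da to a median of 1.66 and 3.06 in Ab, and at ZT19 from 2.67 in Gr to 3.29 and 4.22 in Ab, so the ranges over accessions overlapped, while within each accession ZT1 had the lowest mean. Bo7g105520 had a flatter profile, with a mean WW log2 CPM of 2.92 ± 0.27 at ZT1, 3.61 ± 0.32 at ZT7, 3.73 ± 0.39 at ZT13 and 3.70 ± 0.29 at ZT19. Most of its rise lay before ZT7, and the same held for BraA03g46990R, at a WW log2 CPM of 2.26 ± 0.32 at ZT1 and 2.96 ± 0.39, 2.91 ± 0.44 and 2.92 ± 0.34 at the later time points.

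Bo3g068870 and BraA03g37420R climbed until ZT13 and stayed high at ZT19. The mean WW log2 CPM of Bo3g068870 was 3.78 ± 0.67 at ZT1, 4.26 ± 0.96 at ZT7, 5.09 ± 0.98 at ZT13 and 5.31 ± 0.86 at ZT19 (adjusted p = 6.53e-11, limma), with its highest mean at ZT13 in 8 and at ZT19 in 7 of 15 accessions. BraA03g37420R stood at 5.14 ± 0.46, 5.36 ± 0.64, 5.96 ± 0.81 and 6.05 ± 0.58 at the same time points. BraA09g05890R and Bo9g010710 differed from the other members in that ZT1 was not their trough. The WW log2 CPM of BraA09g05890R was 4.14 ± 1.01 at ZT1, 3.69 ± 1.00 at ZT7, 3.77 ± 0.92 at ZT13 and 4.63 ± 0.87 at ZT19, and it was lowest at ZT7 or ZT13 in 14 of 15 accessions. Bo9g010710 was highest at ZT19 in 11 of 15 accessions, at a mean WW log2 CPM of 3.95 ± 0.87. BraA08g12680R ran from 2.49 ± 0.82 at ZT1 to 3.64 ± 0.59 at ZT19, and Bo1g017970 from 1.60 ± 0.30 to 2.20 ± 0.38, both lowest at ZT1 in most accessions (12 and 10 of 15). Between the highest and lowest group mean, the distance within an accession averaged 0.92 ± 0.33 for Bo1g017970 and 1.87 ± 0.46 for Bo8g049770 on the log2 CPM scale, the ends of the range over members.

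**Figure D2:**
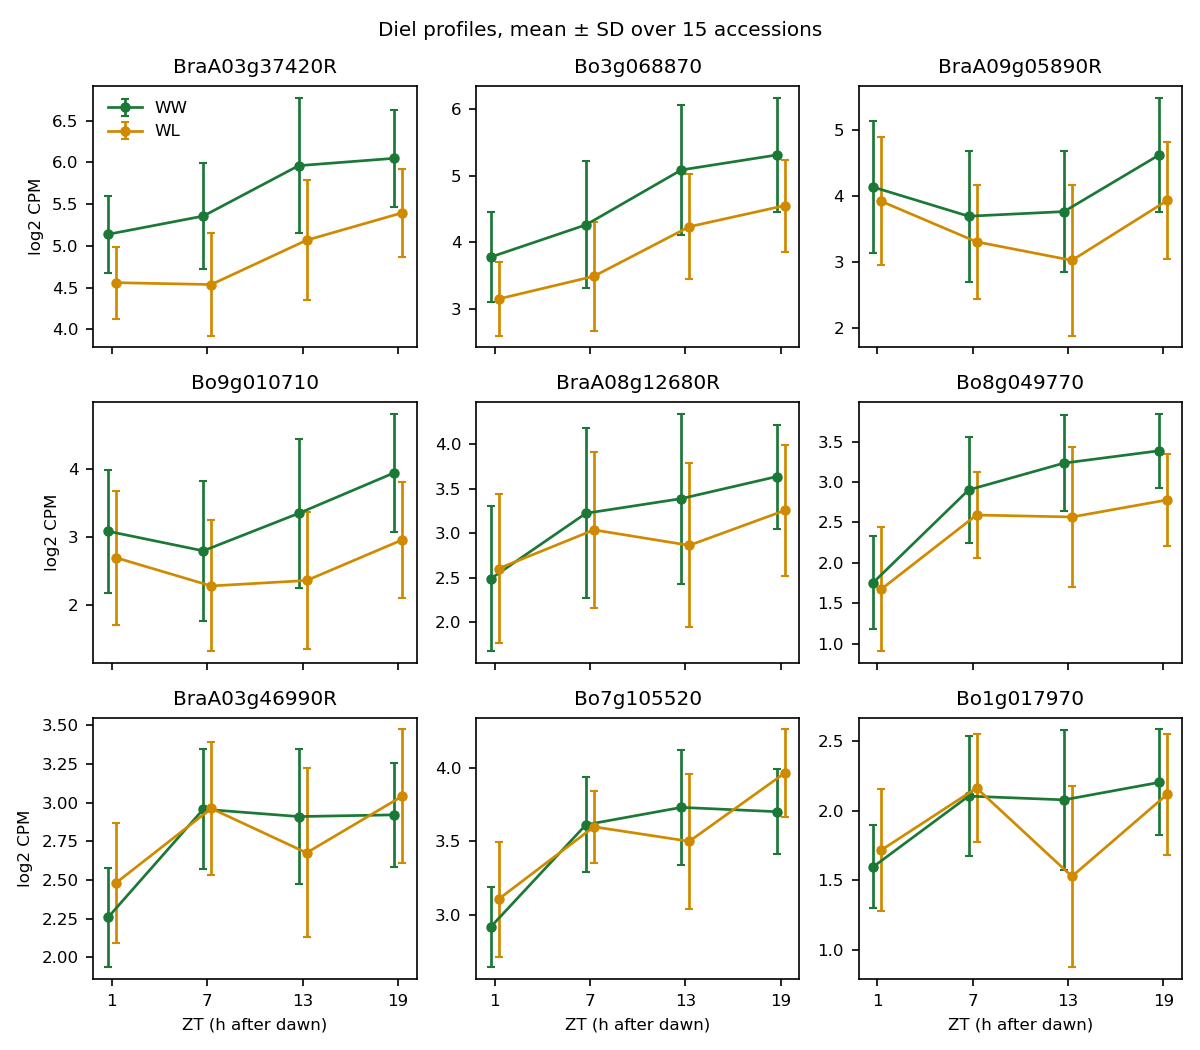
Diel profile of the 9 members, as the mean log2 CPM over 15 accessions without St against hours after dawn (ZT), for WW and WL, with bars for the SD over accessions. Bo3g068870 rises under WW from 3.78 at ZT1 to 5.31 at ZT19, and its WL means lie lower at each time point, from 3.15 to 4.55.

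Under WL the time points differed for 8 of 9 members over the 15 accessions (limma, background 68.4%). The exception was BraA08g12680R, whose WL log2 CPM was 2.60 ± 0.84, 3.04 ± 0.88, 2.87 ± 0.92 and 3.26 ± 0.74 over the 4 time points (adjusted p = 0.0325). The WL peaks were spread more widely, with 66 of 135 at ZT19, 29 at ZT13, 29 at ZT7 and 11 at ZT1, and the lowest value was at ZT1 in 59 (68, 29, 26 and 12, and 60, without the same libraries). These counts have no test. Leaving out Av took the call from Bo9g010710 (adjusted p = 0.0153 by limma), as did leaving out replicate 1 or 3 (up to 0.106). Without replicate 3 Bo1g017970 (0.0286) and without replicate 2 BraA03g46990R (0.0281) were also not called by limma.

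Within single accessions fewer diel calls were made. Under WW, edgeR's quasi-likelihood test called 4 of the 135 pairs at an adjusted p of 0.01 or less, where 4.62% of all gene and accession pairs were called, so the members' share lay under the background. The 4 were BraA03g46990R in Se (adjusted p = 0.00169) and in Da (0.00465), Bo7g105520 in Se (0.00968) and Bo9g010710 in DH12 (0.00810). BraA03g46990R in Se lay between 1.85 and 2.41 in log2 CPM at ZT1 (3 libraries) and between 3.15 and 4.09 at ZT7 (3 libraries), with no overlap. Bo9g010710 in DH12 lay between 1.59 and 2.15 at ZT1, and at ZT19 its 3 libraries were at 2.78, 6.15 and 6.20 in log2 CPM, so its peak was held by 2 libraries. The calls in Se and Da were lost with each of the 3 replicate numbers left out (adjusted p by edgeR up to 0.109 and 0.131 for BraA03g46990R and 0.142 for Bo7g105520), and that in DH12 without replicate 1 (0.204) and replicate 3 (0.163). The call in Da was also lost without the library closer to ZT13 (adjusted p = 0.0117, edgeR). Under WL edgeR called 2 of 135 (background 5.6%), BraA03g46990R in Ne (adjusted p = 0.00585) and Bo1g017970 in DH12 (0.00783), both lost with each replicate number left out (up to 0.113 and 0.211). BraA03g46990R in Ne lay between 3.57 and 4.30 in log2 CPM at ZT7 (2 libraries) and between 1.82 and 2.74 at ZT13 (3 libraries). Bo1g017970 in DH12 lay at 0.01 and 0.38 at ZT13 and between 1.66 and 3.32 at ZT7 (3 libraries). DESeq2 called 18 pairs under WW, where it called 10.7% of all pairs, and 14 under WL, where it called 12.1%.

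The response to water limitation was the main comparison. Over the 15 accessions without St, 5 members were lower under WL and none was higher by limma on a single difference per accession, the mean of the 4 WL minus WW differences in log2 CPM. Among all genes 30.7% were called and 15.5% were called as lower, so 5 of 9 lower members lie above the background, though the members were chosen from St's response with results known and the count is a description. The 5 are also not independent. They include BraA03g37420R with Bo3g068870 (r = 0.95) and BraA09g05890R with Bo9g010710 (r = 0.88). The median difference over the 9 members was -0.42 (log2), and over all genes it was -0.00. RNA of whole tissue was measured, so fewer cells of a type and less RNA per cell cannot be told apart.

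The pair BraA03g37420R and Bo3g068870 fell, with a difference under 0 in each of the 15 accessions. The WL minus WW difference of BraA03g37420R ran from -1.36 in Ab to a median of -0.79 and -0.14 in Av in log2 CPM, with a mean of -0.74 ± 0.10 (SE, n = 15), a WL to WW ratio of 0.598 (adjusted p = 4.23e-05, limma). Bo3g068870 ran from -1.52 in Ab to a median of -0.69 and -0.03 in Av, with a mean of -0.76 ± 0.11 (SE), a ratio of 0.590 (adjusted p = 6.67e-05, limma). Both were called with each accession and each replicate number left out. The low end in Ab leaned on its 1 WL library at ZT7, where the differences were -2.48 and -2.45. The second lowest values were -1.34 in DH12 for BraA03g37420R and -1.37 in Ca for Bo3g068870.

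BraA09g05890R and Bo9g010710 fell, with a difference under 0 in 14 of 15 accessions and Av as the exception for both. For Bo9g010710 the difference was -1.47 in Mu at the low end, with a median of -0.73, -0.17 in Se as the second highest and 0.41 in Av, and its mean was -0.73 ± 0.13 (SE, n = 15, adjusted p = 0.000235, limma). For BraA09g05890R it ran from -1.29 in DH20 (-1.24 without the library closer to ZT7) to a median of -0.39, then -0.01 in Ze and 0.35 in Av, with a mean of -0.52 ± 0.12 (SE, adjusted p = 0.00175, limma). Se, which had the highest WW level of this pair, was the accession with the difference of Bo9g010710 closest to 0.

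Bo8g049770 fell by 0.42 ± 0.11 (SE, n = 15) in log2 CPM, from -1.25 in DH20 to a median of -0.42 and 0.30 in Ze, and was lower in 12 of 15 accessions (adjusted p = 0.00396, limma). The value in DH20 rested on the library with a count of 0, without which it was -0.70, and the lowest was then -1.02 in Ab. That value in turn leaned on the 1 WL library of Ab at ZT7. The difference in Ab was -1.95 at ZT7, against -0.71, -0.66 and -0.76 at ZT1, ZT13 and ZT19. Without replicate 1 the adjusted p of Bo8g049770 was 0.0162 and without replicate 2 it was 0.0366, both above the threshold of 0.01, while without the 6 libraries closer to another time point it was 0.00173 by limma. Its partner BraA08g12680R had a mean difference of -0.25 ± 0.10 (SE) and was lower in 12 of 15 accessions, which did not pass (adjusted p = 0.0411, limma). The values of BraA08g12680R ran from -0.79 in Ne to 0.41 in Yu.

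The other 3 members did not pass, and their means lay close to 0. Bo1g017970 had a mean of -0.12 ± 0.06 (SE, adjusted p = 0.142, limma), with values from -0.66 in DH20 (-0.60 without the library closer to ZT7) to 0.24 in Ze. BraA03g46990R had a mean of 0.02 ± 0.06 (SE, adjusted p = 0.772, limma) and was lower in 7 of 15 accessions, and this mean was -0.01 without Qu and Ze. Bo7g105520 had a mean of 0.05 ± 0.05 (SE, adjusted p = 0.470, limma) and was lower in 6 of 15, from -0.24 in DH20 (-0.23 without the same library) to 0.42 in Yu. These were also the members with the smallest SDs of WW level between accessions (0.39, 0.31 and 0.23 in log2 FPKM). The map of WL minus WW by accession shows the called members mostly in blue and these 3 with values of both signs. Those ran from -0.66 for Bo1g017970 in DH20 to 0.42 for Bo7g105520 in Yu.

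**Figure D3:**
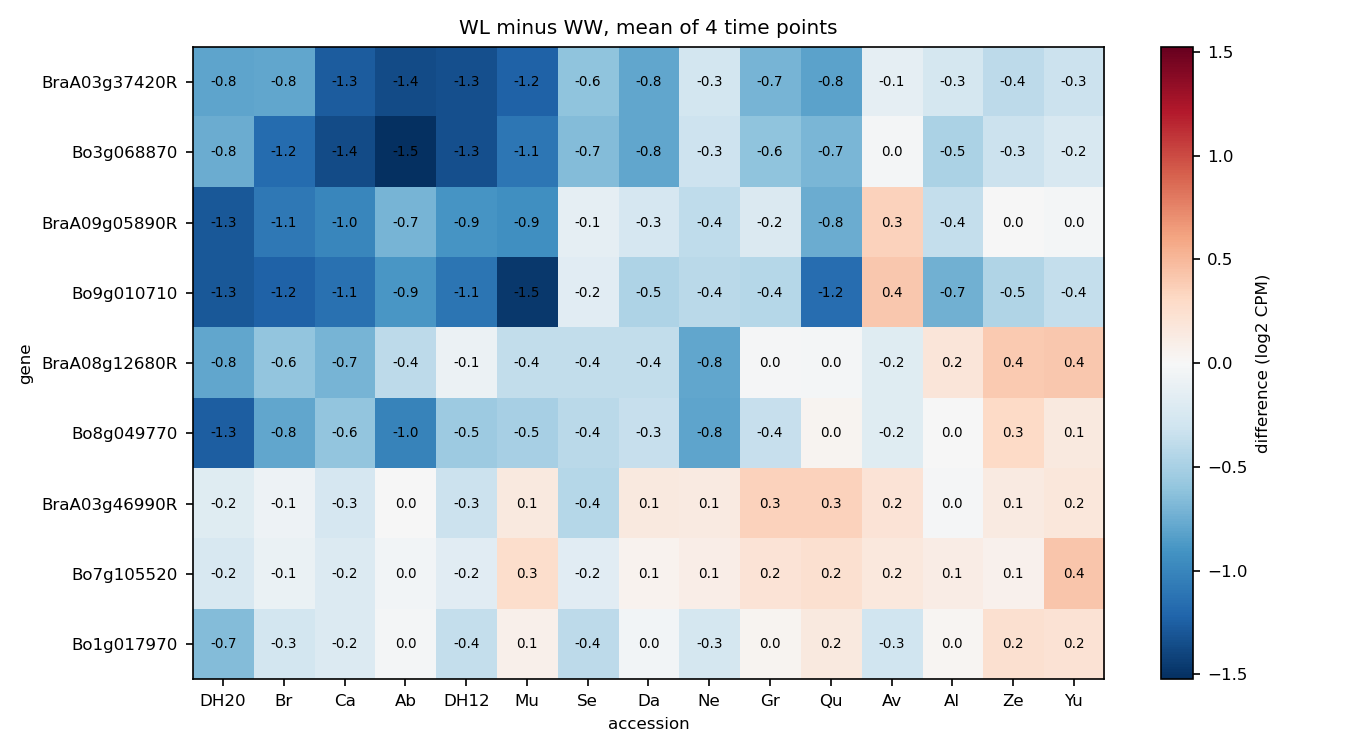
WL minus WW difference of each member (rows) in each of 15 accessions without St (columns, ordered by their median over members), in log2 CPM averaged over the 4 time points, as color (blue lower, red higher under WL) and as a printed value with 1 decimal. The rows of BraA03g37420R and Bo3g068870 hold no value above 0 (Av, at -0.03 for Bo3g068870, prints as 0.0), and those of BraA03g46990R and Bo7g105520 hold values of both signs.

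By accession, all 9 members had a difference under 0 in Ab, Br, Ca, DH12, DH20 and Se. In Da and Ne 7 did, in Al, Gr and Mu 6, in Av and Qu 5, and in Yu and Ze 4. The median over members was -0.79 in DH20 and in Br, and 0.15 in Yu, the highest. Without the 6 libraries closer to another time point all 9 members were also under 0 in Al, and the median was -0.69 in DH20, -0.63 in Br and -0.72 in Ca, the lowest. Members of 1 accession share its libraries, so these counts carry no test. Whether the response of a member differed between accessions was tested by the interaction of treatment and accession in a joint edgeR fit, which called 0 of 9 members (background 1.33%). At an unadjusted p of 0.05 or less edgeR gave 2, BraA03g37420R and Bo3g068870, with adjusted p-values of 0.111 and 0.184, where 22.3% of all genes passed, and limma called 0 of 9 (background 1.77%).

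Within single accessions edgeR called the WL level of 2 of 135 pairs, both lower, where 0.653% of all pairs were called and 0.381% were called as lower. BraA03g37420R in DH12 lay between 4.55 and 7.26 in log2 CPM in 12 WW libraries, with a median of 5.68, and between 3.84 and 6.34 in 11 WL libraries, with a median of 4.37. The libraries overlapped over the whole day, since the time points differ, yet at ZT7 and ZT13 each WL library was below each WW library. Its difference was -1.37 ± 0.23 (SE, adjusted p = 0.00125, edgeR), in an accession where 3.06% of genes were called as lower. Without replicate 1 or replicate 3 the adjusted p of edgeR rose to 0.116 and 0.0689.

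Bo3g068870 in Br lay between 3.22 and 6.96 in log2 CPM in 10 WW libraries, with a median of 4.92, and between 2.51 and 5.46 in 12 WL libraries, with a median of 3.86. Its difference of -1.25 ± 0.26 (SE) had an adjusted p of 0.00999 by edgeR, just inside the threshold, with 1.38% of genes called as lower in Br. It was lost with size factors of the RLE method (0.0103), without a filter on low counts (0.0101), without replicate 1 (0.182) or replicate 2 (0.160), and without the library closer to ZT13 (0.0219), all by edgeR. At an unadjusted p of 0.05 or less 42 of 135 pairs differed by edgeR, 41 of them lower, where 19.9% of all pairs did. DESeq2 called 12 pairs, all lower and all of BraA03g37420R, Bo3g068870 or Bo9g010710, in Ab, Br, Ca, DH12 and Se, where it called 3.57% of all pairs and 2.23% as lower.

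The response was then taken by time of day. At ZT1 limma over the 15 accessions called 2 of 9 members, both lower (background 19.7%, lower 9.97%), at ZT7 3 (13.8%, lower 7.16%), at ZT13 1 (1.84%, lower 1.26%) and at ZT19 4 (7.2%, lower 4.37%), so 10 of 36 tests were called and all 10 were lower. BraA03g37420R was the only member called at each time point. Its difference was -0.58 ± 0.15 (SE, n = 15) at ZT1, -0.83 ± 0.16 at ZT7, -0.90 ± 0.17 at ZT13 and -0.65 ± 0.14 at ZT19 in log2 CPM, with adjusted p-values by limma of 0.00681, 0.00199, 0.00756 and 0.00622. Bo3g068870 was called at ZT1 (-0.63 ± 0.17, SE), ZT7 (-0.79 ± 0.17) and ZT19 (-0.76 ± 0.16), and at ZT13 it stood at -0.86 ± 0.20 with an adjusted p of 0.0140 by limma.

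Bo9g010710 was called at ZT7 (-0.53 ± 0.13, SE, adjusted p = 0.00778, limma) and ZT19 (-0.99 ± 0.18, 0.00294), the largest called difference at any time point. At ZT19 it ran from -2.17 in DH12 to a median of -1.04 and 0.40 in Av, and 14 of 15 accessions were lower. BraA09g05890R was called at ZT19 only (adjusted p = 0.00604, limma), where 13 of 15 accessions were lower, from -1.53 in Ca to a median of -0.80 and 0.16 in Yu. At ZT13 neither passed, with a median over accessions of -0.94 for Bo9g010710 (from -3.28 to 0.53, adjusted p = 0.0177, limma) and of -0.57 for BraA09g05890R (from -2.57 to 0.17, adjusted p = 0.0263, limma). The low end was Mu for both and the high end Av.

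These single time points held less firmly than the level. The 10 calls became 5 without Ab, 6 without Al, 6 without Br, 3 without Ca, 4 without DH12, 6 without DH20, 6 without Gr, 3 without Mu, 6 without Ne, 3 without Qu and 5 without Se, and stayed within 1.5 times of 10 with each of the other accessions left out. Only BraA03g37420R and Bo3g068870 at ZT7 and Bo9g010710 at ZT19 were called by limma with each of the 15 accessions left out in turn. With replicate 1, 2 or 3 left out, 2, 2 and 1 of the 36 were called. The 1 without replicate 3 was Bo8g049770 at ZT19 (adjusted p = 0.00858, limma), so none of the 10 calls was kept there. BraA03g37420R and Bo3g068870 at ZT7 were lost without replicate 1 and without replicate 3. Bo9g010710 at ZT19 was lost with each replicate number left out. Without Qu and Ze 5 of the 36 were called, and without the 6 libraries closer to another time point 9.

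**Figure D4:**
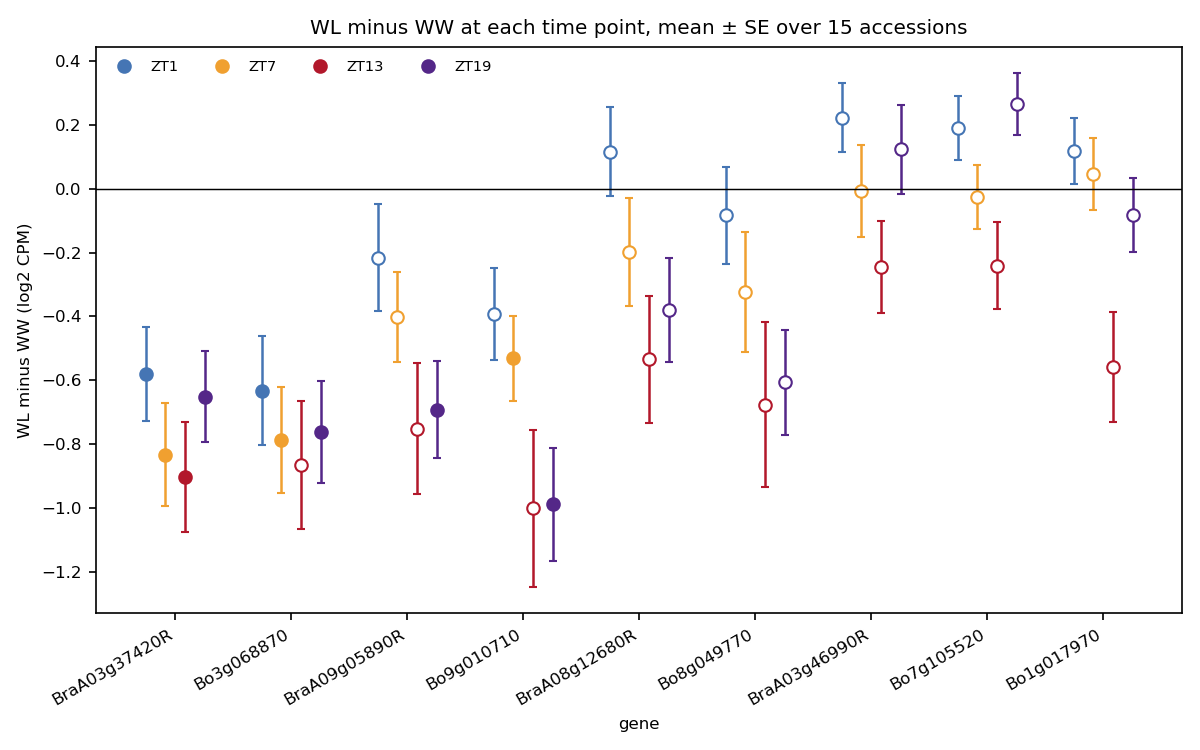
WL minus WW difference of each member at ZT1, ZT7, ZT13 and ZT19 in log2 CPM, as the mean over 15 accessions without St with bars for the SE, filled where limma called it and open otherwise. BraA03g37420R lies under 0 at all 4 time points (-0.58, -0.83, -0.90 and -0.65), and Bo7g105520 lies at 0.19 at ZT1 and 0.27 at ZT19.

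The members that were not called on the level had differences of both signs over the day. Bo7g105520 stood at 0.19 ± 0.10 (SE) at ZT1, -0.03 ± 0.10 at ZT7, -0.24 ± 0.14 at ZT13 and 0.27 ± 0.10 at ZT19, none of which passed. Bo1g017970 stood at 0.12 ± 0.10 at ZT1 and -0.56 ± 0.17 at ZT13 (adjusted p = 0.0414, limma), and was lower at ZT13 in 12 of 15 accessions. BraA03g46990R and BraA08g12680R had means of 0.22 ± 0.11 and 0.12 ± 0.14 at ZT1 and of -0.24 ± 0.14 and -0.53 ± 0.20 at ZT13. Whether the response itself changed with the time of day was tested by limma's F test on the differences at the 4 time points. It called 0 of 9 members (background 7.54%), with 4 at an unadjusted p of 0.05 or less, as had 31.5% of all genes. The lowest adjusted p was that of Bo1g017970 (0.0266, limma), which fell to 0.00545 without Gr, the accession with the highest ZT13 value of this gene (0.63).

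In single accessions no member was called in the pattern test of edgeR (0 of 135, background 0.0339%), with 15 pairs under an unadjusted p of 0.05, as had 8.27% of all pairs, and 0 called by DESeq2 (background 0.481%). Nor was any called at a single time point by edgeR, where 0.00968% of all pairs were called at ZT1, 0.0138% at ZT7, 0.397% at ZT13 and 0 at ZT19. Pairs under an unadjusted p of 0.05 by edgeR numbered 8, 19, 29 and 20 of 135 at these time points, where 10%, 9.95%, 12.1% and 9.51% of all pairs did so. DESeq2 called 6 pairs, all lower at ZT13 in Br or DH12, where it called 1.5% of all pairs at ZT13 and 0.896% as lower. The lowest difference of any member at ZT13 was that of Bo8g049770 in DH20, -3.67. Its WW libraries were at 4.82 and 4.98 in log2 CPM and its WL libraries at 3.54, 3.38 and -3.22, the last being the library with a count of 0 that was closer to ZT7. Without that library the difference was -1.44, and that of BraA08g12680R in DH20 went from -2.20 to -0.98.

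In St the WL response chose the members, so its values are a description with no test. At ZT13 each of the 9 was lower under WL, from -3.02 for Bo8g049770 to -1.30 for Bo7g105520 in log2 CPM with a median of -2.29, and for none of them did the 2 WL libraries overlap the 3 WW libraries. Of all 67997 genes, 28.2% did not overlap at ZT13 and 14.5% had each WL library under each WW library. Bo8g049770 stood at 4.96, 4.30 and 4.40 in the WW libraries and at 2.22 and 0.86 in the WL libraries. BraA03g37420R stood at 6.53, 5.37 and 5.90 under WW and at 4.29 and 4.24 under WL. These WL libraries were also the shallower ones, at 12740465 and 12912634 total counts against 14806790 to 18898985 for the WW libraries, and the part of depth in the result was not tested.

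Over the day, the highest WW group mean of St was at ZT13 for 8 of the 9 members, and the lowest WL group mean was at ZT13 for 8 of the 9. The exceptions were BraA09g05890R under WW, at 4.20 in log2 CPM at ZT1 and 3.70 at ZT13, and Bo7g105520 under WL, at 3.12 at ZT1 and 3.34 at ZT13. Since the response of St chose the members, a common peak and trough may follow from the choice. The counts are a description, with no share over all genes beside them.

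At ZT1 the 9 members were also lower in St, from -1.32 to -0.45 with a median of -0.68, though the libraries of all but BraA03g37420R overlapped (29.3% of all genes did not overlap at ZT1). For BraA03g37420R the WW libraries were at 5.54, 5.06 and 5.02 in log2 CPM and the WL libraries at 4.22 and 4.82. For Bo8g049770, BraA08g12680R and Bo1g017970 the 2 WL libraries were far apart, at -0.30 and 3.54, at 0.71 and 4.29 and at 0.49 and 2.40, with replicate 2 the low one each time. At ZT7, 8 of 9 were higher under WL (median 0.64), but this rests on 1 WL library, which was closer to ZT13 (r = 0.611) than to ZT7 (r = 0.559). That library lay outside the range of the WW libraries for 8 of 9 members, as for 72.3% of all genes (30.9% lower, 41.4% higher). At ZT19, 6 were higher and 3 lower, from -0.71 for BraA03g46990R to 1.33 for Bo9g010710, and BraA08g12680R was the only member without overlap, against 19% of all genes.

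**Figure D5:**
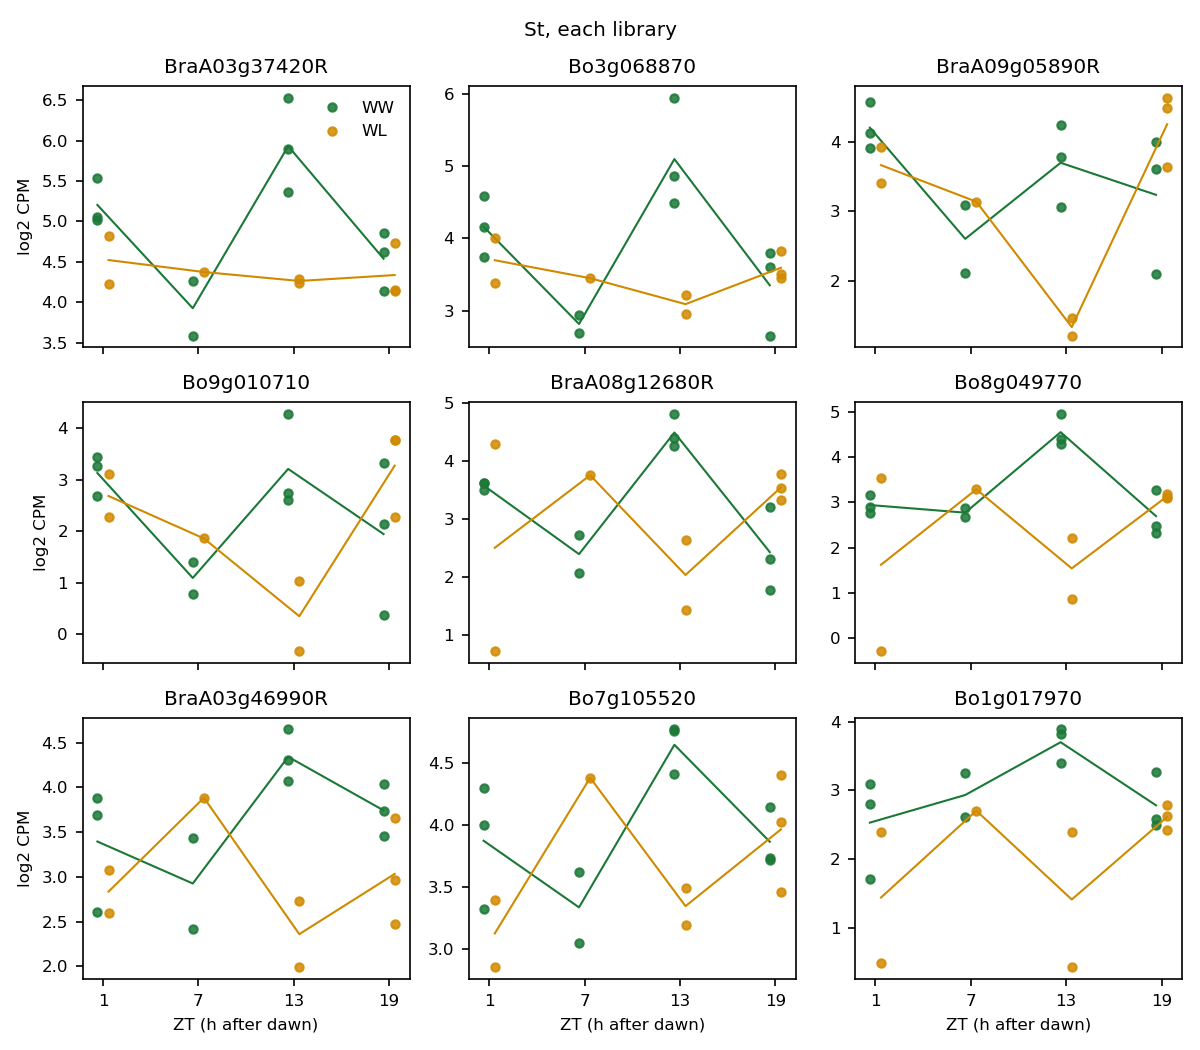
Log2 CPM of the 9 members in the 19 libraries of St at ZT1, ZT7, ZT13 and ZT19, with 1 point per library for WW (green) and WL (orange) and lines through the group means. At ZT13 the 2 WL libraries lie under the 3 WW libraries for each member, and at ZT7 there is 1 WL library.

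The differences of St were set beside those of the other 15 accessions at each time point. At ZT13 its difference was under that of all 15 others for Bo1g017970, Bo7g105520, BraA03g46990R and BraA08g12680R, and 1 accession was lower than St for Bo3g068870, Bo8g049770, Bo9g010710 and BraA09g05890R. For Bo8g049770 that accession was DH20, at -3.67 with the library of count 0 and at -1.44 without it. The lowest of the others was then DH12 at -1.82, above St at -3.02. For BraA03g37420R 3 were lower. The median of the others at ZT13 ran from -0.10 for Bo7g105520 to -0.96 for Bo9g010710. At ZT19 St was above all 15 for Bo3g068870, Bo9g010710, BraA08g12680R and BraA09g05890R. Of these, BraA09g05890R, Bo3g068870 and Bo9g010710 were called as lower over the other accessions at that time point. For Bo3g068870 St, at 0.243, was barely above Ze, at 0.237. The WL and WW libraries of St overlapped at ZT19 for Bo3g068870 and BraA09g05890R. At ZT1 St was under all 15 for Bo1g017970, Bo7g105520 and Bo8g049770, and 1 accession was lower than St for BraA03g46990R and BraA08g12680R. At ZT7 it was above all 15 for 7 of 9 members, which rests on the 1 WL library closer to ZT13. At ZT1 and ZT19 other members lay well inside the range, with at least 5 accessions on each side of St for 4 members at ZT1 (BraA03g37420R, Bo3g068870, BraA09g05890R and Bo9g010710) and for 2 at ZT19 (Bo1g017970 and Bo7g105520). For Bo9g010710 at ZT19 the St libraries were at 2.13, 3.33 and 0.37 under WW and at 2.27, 3.78 and 3.78 under WL, which overlap. Since St was singled out by its response, these ranks are no test of a difference.

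Other lists of the same supplement were set beside the members by counts on the shared level. Among all genes 30.7% were called on it and 15.5% were called as lower, and lists of 4 genes are too short to be set against these shares. Of 4 genes listed for the response to cold, from Gr, 1 was called, as lower, with a median difference of -0.04 in log2 CPM. Of 4 listed for the response to temperature, from Av, 1 was called, as higher, with a median of 0.21. Of 15 listed for the regulation of cell death, from the same module of St, 10 were called, all lower, with a median of -0.31, against 5 of 9 and -0.42 for the water deprivation regulators. These lists were chosen on the same samples and are not independent evidence of a direction.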

How the data were processed

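The authors trimmed paired reads with Trimmomatic 0.33, mapped them with HISAT2 2.1.0 to the joined R500 and TO1000 references and counted them with featureCounts, by strand and giving each place of a multiply mapped read a fraction. The authors deposited these estimated counts without normalization, and log2 FPKM normalized with edgeR within each accession, from which invariant genes were removed. The members and lists were chosen with earlier results of these data known. All 9 members were to be named, with the most correlated non-member for each. Counts were rounded. Each accession was fitted with edgeR 4.0.16 (glmQLFTest, TMM, filterByExpr, 8 group means). Shared tests used limma 3.58.1 (eBayes with trend) on log2 CPM (prior count 2), with 1 score per accession and St left out. P-values were adjusted by Benjamini-Hochberg over all genes tested and called at 0.01 or less. DESeq2 1.42.0, other scalings and filters, and left-out replicates, libraries and accessions were alternatives. The shared diel tests, the alternatives for diel calls under WL and the accession and library exclusions were chosen after seeing the data. On simulated counts of 54836 genes, edgeR within Mu recovered 100 of 100 genes changed in level and 97 of 100 in pattern. For a diel change under WW it recovered 91 of 100, and false calls numbered 2, 0 and 1. Recovery of differences as small as those of the members was not tested. Depth is given with the samples, and no column belonged to an unlabelled sample.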

Additional observations from a re-analysis of the deposited data

How the results depend on the processing

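The shared fall of 5 members was called under each alternative run on it, other than with replicate 1 or 2 left out (4 to 5 members over the replicate numbers left out, 5 with each accession left out). Calls in single accessions depended on the setting. The WL level calls by accession (2) became 1 with RLE size factors, 1 without the filter on low counts, 1 without the libraries closer to another time point, 12 with DESeq2, 10 at an adjusted p of 0.05, and 0 to 4 with a replicate number left out. Calls at single time points by accession (0) became 6 with DESeq2, 6 at 0.05 and 0 to 4 with a replicate left out. Diel calls under WW by accession (4) became 18 with DESeq2, 18 at 0.05 and 1 to 5 with a replicate left out, and those under WL (2) became 14 with DESeq2, 14 at 0.05 and 0 with a replicate left out. The 10 shared calls by time point became 5 without Qu and Ze, 17 at 0.05 and 3 to 11 with an accession left out. With a replicate left out 1 to 2 were called, and the 1, without replicate 3, was none of the 10. The shared pattern calls (0) became 1 at 0.05 and 0 to 1 with an accession left out. The mean difference of BraA03g46990R turned to -0.0104 without Qu and Ze, ran from -0.00979 to 0.0741 with a replicate left out and from -0.000173 to 0.0554 with an accession left out (log2 CPM, lowest without Gr). The causes were not tested. Replicate numbers did not pair the samples, since same-numbered libraries were more alike in 3 of 16 accessions. With the replicate number as a block, WL level calls by accession stayed at 2 diel WW calls went from 4 to 2, diel WL calls went from 2 to 1 (Ne at an adjusted p of 0.0129 and DH12 at 0.0166 were lost by edgeR, and Bo7g105520 in Gr was gained), and calls at single time points and of the pattern stayed at 0. In groups of 1 library the spread is taken from the other groups.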
